A study of Mus musculus with 2 samples.

Results

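The Cyp1, Cyp3 and Cyp4 families of cytochrome P450 were read on 2 microarrays, 1 of mature hepatocytes (MHs) and 1 of Sox9+EpCAM- cells. The members were taken by name, as every gene of the array design whose symbol is Cyp1, Cyp3 or Cyp4 with a subfamily letter and a number. This gave 28 of 30153 genes, with 36 probes, each printed as 1 spot. They comprised 3 Cyp1 genes, 8 Cyp3a genes and 17 Cyp4 genes, of which 6 were Cyp4a, 8 were Cyp4f and the others were Cyp4b1, Cyp4v3 and Cyp4x1. MHs came from healthy livers and were purified on a Percoll gradient. The other cells were sorted by FACS after DDC feeding of Sox9-EGFP mice, DDC being a porphyrin-inducing compound that injures bile ducts, as cells positive for the GFP reporter of Sox9 and negative for EpCAM. The methods give Sox9-EGFP mice for both, and the labels give both as male, but no age, feeding time or number of mice was stated for either array. The comparison addressed how Sox9+EpCAM- cells, called biphenotypic hepatocytes, differ from MHs. MHs were not taken from DDC-injured livers and Sox9+EpCAM- cells were not taken from healthy ones, so diet, cell type, way of isolation and individual mice cannot be told apart.

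Cytochromes P450 are haem enzymes of the endoplasmic reticulum that oxidise lipids, steroids, drugs and other small molecules with electrons from P450 oxidoreductase. In the liver, Cyp1 genes are switched on by aryl hydrocarbons through the receptor AHR, Cyp3a genes by drugs and bile acids through PXR and CAR, and Cyp4a genes by fatty acids and fibrates through PPARα. Cyp1 and Cyp3a enzymes mainly clear foreign compounds and steroids, Cyp4a enzymes hydroxylate the end of fatty acid chains, and several Cyp4f enzymes inactivate leukotrienes and related lipids. DDC is itself known to act on the haem of cytochromes P450, which are proteins, whereas the arrays measured RNA only.

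The genes of the Cyp3a cluster differ in the DNA before their start sites, and these sequences are shown because the differences between the arrays, given later, were larger for the first set than for the second. Of 28 members, 21 had a promoter in the RefSeq-derived table of GRCm38.p6, which holds 250 bases before and 50 bases after the start site. Cyp3a11, Cyp3a16, Cyp3a41b and Cyp3a44 had a stretch of 21 bases in common, marked in capitals, which was found in 5 of 27025 promoters, those of these 4 genes and of Cyp3a41a.
Cyp3a11, chr5:145880031-145880071, minus strand: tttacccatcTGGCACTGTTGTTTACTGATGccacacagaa
Cyp3a16, chr5:145469892-145469932, minus strand: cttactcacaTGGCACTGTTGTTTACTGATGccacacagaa
Cyp3a41b, chr5:145584895-145584935, minus strand: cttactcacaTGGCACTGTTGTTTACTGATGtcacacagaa
Cyp3a44, chr5:145806039-145806079, minus strand: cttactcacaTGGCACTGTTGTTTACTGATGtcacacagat
Cyp3a25, Cyp3a57 and Cyp3a59 had another stretch of 46 bases in common, also in capitals, found in the promoters of these 3 genes and in none of the other promoters of the table.
Cyp3a25, chr5:146009619-146009677, minus strand: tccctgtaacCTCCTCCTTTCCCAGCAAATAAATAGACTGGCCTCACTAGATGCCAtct
Cyp3a57, chr5:145345210-145345268, plus strand: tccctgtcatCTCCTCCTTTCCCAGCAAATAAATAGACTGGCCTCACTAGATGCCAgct
Cyp3a59, chr5:146079198-146079257, plus strand: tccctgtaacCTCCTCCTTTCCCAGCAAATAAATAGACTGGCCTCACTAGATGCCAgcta
Over the 250 bases before the start site, a global alignment gave 72.5% to 94.8% identity among the first 4 genes, 88.9% to 94.8% among the second 3, and 53.1% to 57.4% between a gene of the first and a gene of the second set. Cyp3a11 was the least similar of the first set, with 72.5% to 76.6%. Cyp3a13, which lies apart from the others on chromosome 5, had 52.2% to 57.8% identity with them. The sequence AGGTCA, the half-site bound by many nuclear receptors, was searched on both strands and was found in 16.0% of all promoters of the table. It was found in 5 of these 7 promoters, and each gene of the second set held it once on each strand. Over all Cyp1, Cyp3 and Cyp4 promoters of the table, 4 of them not on the array by name, it was found in 6 of 25. The promoter of Cyp3a13 lacked it. The bases from 190 to 141 before the start site are given with AGGTCA, or TGACCT for the opposite strand, in capitals.
Cyp3a11, chr5:145879995-145880044, minus strand: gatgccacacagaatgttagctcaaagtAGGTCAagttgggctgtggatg
Cyp3a16, chr5:145469864-145469913, minus strand: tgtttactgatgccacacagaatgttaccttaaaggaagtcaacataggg
Cyp3a41b, chr5:145584871-145584920, minus strand: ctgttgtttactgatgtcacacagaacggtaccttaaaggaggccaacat
Cyp3a44, chr5:145806015-145806064, minus strand: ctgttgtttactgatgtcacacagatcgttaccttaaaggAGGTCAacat
Cyp3a25, chr5:146009759-146009808, minus strand: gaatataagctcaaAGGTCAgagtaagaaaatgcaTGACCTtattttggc
Cyp3a57, chr5:145345079-145345128, plus strand: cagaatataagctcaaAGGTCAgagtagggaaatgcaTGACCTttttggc
Cyp3a59, chr5:146079068-146079117, plus strand: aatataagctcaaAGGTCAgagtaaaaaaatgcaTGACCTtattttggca
A match of these letters is a description only, and the promoters were put in sets after the values of the genes were seen.

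Each array gave 1 fluorescence value per spot, and 43020 spots of each were not controls. The array of MHs had 27523 and that of Sox9+EpCAM- cells 32158 spots well above background. No spot of a member was saturated or marked as an outlier. Intensities were divided by the 75th percentile of their array, 741 for MHs and 1110 for Sox9+EpCAM- cells, before a difference was taken, so an equal raw intensity on both arrays means a lower relative level in Sox9+EpCAM- cells. With 1 array per group there is no replicate, no test and no SD between samples. The error given with a difference is that of the 2 spots from the error model of the scanner software, and it leaves out the spread between mice. A probe not well above background on 1 array has only a bound there, written as "at least". For probes printed 8 times or more, repeated spots had a median SD of 0.08 (log2) on each array. A difference of 4-fold was used as the rule of size.

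The labelled cell types were checked against markers. All 8 hepatocyte markers were well above background on both arrays, with log2 differences of -2.46 for Tat, -1.73 for Cps1, -1.11 for Tdo2, -1.02 for Ttr, -0.87 for Alb, -0.54 for Apoa1, -0.23 for Hnf4a and -0.22 for Apob. The sign of the last 3 differed between the ways of processing tried. Sox9 could be measured in Sox9+EpCAM- cells only, where it was at least 1.45-fold higher, and there Spp1, encoding osteopontin, was 122-fold higher and Cd24a at least 186-fold higher. Although the cells had been sorted as EpCAM-, the intensity of Epcam was 139 in MHs and 2770 in Sox9+EpCAM- cells, 13.3-fold higher. The other cholangiocyte markers read were mixed, with Muc1 at least 7.18-fold higher, log2 differences of 0.42 for Krt19 and -0.23 for Krt7, and Cftr lower, with intensities of 69.6 and 52.1 before scaling. The log2 difference of Muc1 weakened from 2.84 to 1.29 in another way of processing. Against the labels, Xist had an intensity of 1940 in MHs and 16.1, not well above background, in Sox9+EpCAM- cells, and 4 of 4 genes of the Y chromosome, Ddx3y, Kdm5d, Eif2s3y and Uty, had signal well above background in Sox9+EpCAM- cells only. Endothelial markers were lower in Sox9+EpCAM- cells, with Clec4g 11.7-fold, Stab2 8.09-fold, Cdh5 at least 8.39-fold, Kdr 2.76-fold and Pecam1 1.69-fold lower, and Lyve1 was not well above background on either array. For Cdh5 the log2 difference weakened from -3.07 to -1.67 in another way of processing. The scaled intensity summed over the 6 endothelial markers was 6.43 in MHs and 2.03 in Sox9+EpCAM- cells, and the part of such cells in the lower values of members was not tested.

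Of the 28 members, 19 could be measured on both arrays, 2 in MHs only, 5 in Sox9+EpCAM- cells only and 2 on neither array. The 2 that could not be measured were Cyp1a1 and Cyp4b1. Among the 26 members that could be measured, 9 were lower by 4-fold or more in Sox9+EpCAM- cells, or 34.6%, as compared with 5.58% of 23417 genes of the array. They were Cyp1a2, Cyp3a11, Cyp3a16, Cyp3a25, Cyp3a41b, Cyp3a44, Cyp3a59, Cyp4f14 and Cyp4f40. A single member, Cyp1b1, was at least 4-fold higher, and its share of 3.85% lay close to the 5.59% of all genes. The median log2 difference was -1.25 over the 25 members with a difference and -0.12 over 21890 genes. Families differed from each other in these counts, with 6 of 8 Cyp3a genes, 2 of 8 Cyp4f genes and 0 of 6 Cyp4a genes lower by at least 4-fold. Of 40 measured Cyp2 genes, 15 were at least 4-fold lower and 0 higher, with a median log2 difference of -1.49.

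**Figure D1:**
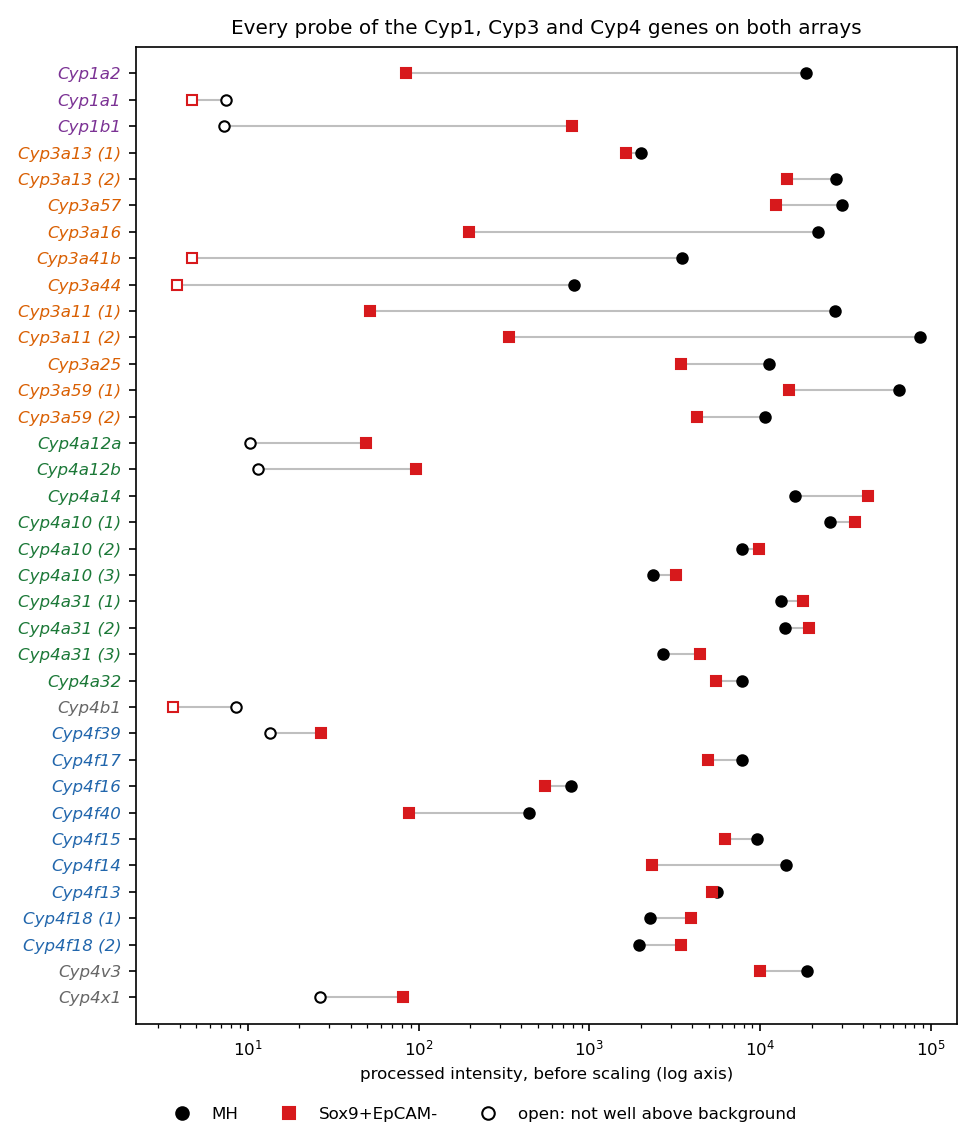
Processed intensity (log axis, before scaling) of all 36 probes of the 28 genes on the MH array (black circles) and the Sox9+EpCAM- array (red squares), with open symbols for spots not well above background and several probes of a gene numbered in map order. Cyp1a2, Cyp3a11 and Cyp3a16 were bright on the MH array and low on the Sox9+EpCAM- array, whereas the Cyp4a10, Cyp4a14 and Cyp4a31 probes were bright on both.

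**Figure D2:**
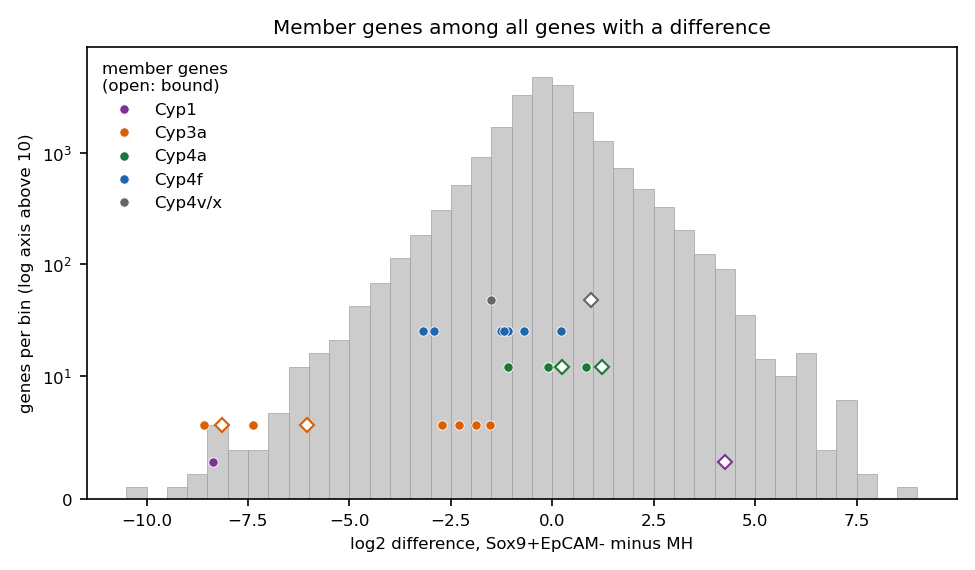
Histogram of the log2 difference between Sox9+EpCAM- cells and MHs over 21890 genes in bins of 0.5 (gray, the vertical axis is linear up to 10 and logarithmic above), with the member genes drawn as points at arbitrary heights, coloured by family (open diamonds are bounds). The Cyp3a genes form 2 groups, between -8.58 and -6.05 and between -2.72 and -1.54, and the Cyp4a genes lie between -1.09 and 1.22.

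Of the 3 Cyp1 genes, 2 could be compared, and they differed in opposite directions. Cyp1a2, a hepatocyte enzyme that metabolises caffeine and aromatic amines, is read at 57528060 to 57528119 of chromosome 9 (mm9, minus strand). It had an intensity of 18500 in MHs and 84.1 in Sox9+EpCAM- cells. It was 330-fold lower in the latter, a log2 difference of -8.36 ± 0.21 (spot error) that was -7.55 after normexp correction. Its neighbour Cyp1a1, the classical AHR-induced enzyme, was not well above background on either array. Cyp1b1, which is expressed mostly outside hepatocytes and is read at 80106547 to 80106606 of chromosome 17 (minus strand), was the reverse of Cyp1a2. Its intensity was 7.26, not well above background, in MHs and 792 in Sox9+EpCAM- cells, at least 19.0-fold higher. The correction of background by the normexp method, which raises low signals, lowered this bound to a log2 difference of 2.50. Fibroblast and stellate cell markers, which mark cells known to express Cyp1b1, were also mostly higher. Of 11 such markers, 10 could be compared, and 9 of these had a higher value in Sox9+EpCAM- cells. The increase was 4-fold or more for 4, against 5.59% of all genes, and within 2-fold for 3, Dcn, Acta2 and Des. A single marker, Lrat, was lower by 4-fold or more. In other ways of processing, Lum and Lrat fell short of 4-fold and the sign of Des turned. The intensity summed over the 11 markers, divided by the 75th percentile, was 12.3 in MHs and 44.7 in Sox9+EpCAM- cells. The largest among those measured on both arrays were Col3a1, 85.1-fold higher, Col1a1, 21.3-fold higher, and Col1a2, 15.4-fold higher, while Pdgfrb was not well above background on either array. Their part in the difference of Cyp1b1 was not tested, and in such bulk RNA, more cells of a type and more RNA per cell cannot be told apart.

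The bases before the start sites of the Cyp1 genes are shown because the genes differed in direction. GCGTG, the core recognised by AHR with ARNT, is in capitals, as is CACGC for the opposite strand.
Cyp1a1, chr9:57697533-57697612, plus strand: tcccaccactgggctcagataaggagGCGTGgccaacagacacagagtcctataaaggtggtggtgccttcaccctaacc
Cyp1a2, chr9:57683656-57683735, minus strand: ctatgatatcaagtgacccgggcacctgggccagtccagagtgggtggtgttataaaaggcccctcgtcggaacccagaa
Cyp1b1, chr17:79715062-79715141, minus strand: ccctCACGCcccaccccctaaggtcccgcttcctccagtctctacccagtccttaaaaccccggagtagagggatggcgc
Within the window of the table, the motif was found for Cyp1a1 and Cyp1b1 and not for Cyp1a2, and it was found in 32.5% of all promoters. In mouse, AHR elements of the Cyp1a genes are known to lie farther away than this window.

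The Cyp3a genes, of which Cyp3a11 is regarded as encoding the main drug-metabolising form of the mouse, were all lower in Sox9+EpCAM- cells under every alternative processing that gave them a value, but to unequal degrees. The median log2 difference of the 8 genes was -4.39 with bounds at their limit, and -2.51 over the 6 genes measured on both arrays. It lay between 2 groups of genes, so it describes neither. Cyp3a11, Cyp3a16, Cyp3a41b and Cyp3a44, those with the first promoter sequence, were lower by at least 66.4-fold each, a limit set by Cyp3a44, whose log2 difference was -4.19 after normexp correction. Cyp3a25, Cyp3a57 and Cyp3a59, those with the second, and Cyp3a13 were lower by 2.90-fold to 6.60-fold.

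Cyp3a11 was read by 2 probes. The brighter one, which spans 1868 bases from 146672058 to 146673925 of chromosome 5 (mm9, minus strand) and so crosses an exon junction, had intensities of 85800 in MHs and 337 in Sox9+EpCAM- cells, 381-fold lower with a log2 difference of -8.58 ± 0.20 (spot error). The array design assigns this probe to 4 genes, Cyp3a11, Cyp3a41a, Cyp3a41b and Cyp3a44. The other, at 146666237 to 146666296, is assigned to Cyp3a11 only and gave 27400 and 52.1, 788-fold lower with a log2 difference of -9.62 ± 0.23. Both probes were thus far lower, and the one assigned to Cyp3a11 alone more so.

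Cyp3a16, Cyp3a41 and Cyp3a44 are forms known for higher expression in female than in male mice. Cyp3a16 had an intensity of 21900 in MHs and 196 in Sox9+EpCAM- cells, 167-fold lower. Cyp3a41b gave 3490 in MHs and 4.69, not well above background, in Sox9+EpCAM- cells, at least 284-fold lower. Cyp3a44 gave 815 and 3.86, at least 66.4-fold lower. With normexp correction the log2 differences weakened from -8.15 to -5.92 for Cyp3a41b and from -6.05 to -4.19 for Cyp3a44. All 3 were thus clearly present on the MH array, the one on which Xist was above background and the genes of the Y chromosome were not. Whether sex had a part in their differences was not tested. The probes of Cyp3a41b and Cyp3a44 are near copies, with 46 of 53 overlapping bases identical, and stretches of 30 bases of both are shown with the differing bases in capitals.
Cyp3a44: cactgagctttctcagtgtctgtGcaAgtt
Cyp3a41b: cactgagctttctcagtgtctgtAcaGgtt
The design assigns the first of these to Cyp3a44 and the second to both Cyp3a41a and Cyp3a41b, and the values of these genes cannot be fully separated. When probes with a stretch of 20 bases found also in another gene's probe were left out, neither gene had a value, and the median log2 difference of the remaining 6 Cyp3a genes was -2.51.

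The other Cyp3a genes remained bright in Sox9+EpCAM- cells. Cyp3a25 had intensities of 11300 and 3440 in MHs and Sox9+EpCAM- cells, a log2 difference of -2.30 ± 0.20 (spot error). Cyp3a57 had 30300 and 12300, a log2 difference of -1.88 ± 0.20. Both lay so close to the 4-fold rule that their side of it depended on the scaling. Cyp3a25 fell just short of it with quantile normalization, and Cyp3a57 passed it with Gapdh, at -2.01, and with the deposited table, at -2.06. Cyp3a59 had 65200 and 14800 at its brighter probe, 6.60-fold lower, and 10600 and 4260 at the other, 3.73-fold lower. Cyp3a13, which is read apart from the other Cyp3a genes of chromosome 5 and is known for expression in the intestine as well as in the liver, had 27700 and 14300 at its brighter probe, 2.90-fold lower, and 2000 and 1640 at the other, 1.83-fold lower. In the map order of mm9, and leaving Cyp3a13 aside, Cyp3a57 comes first, then Cyp3a16, Cyp3a41b, Cyp3a44 and Cyp3a11 as an unbroken run among the members, then Cyp3a25 and Cyp3a59. The strongly lower genes were therefore neighbours, with genes of smaller differences on both sides of them.

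**Figure D3:**
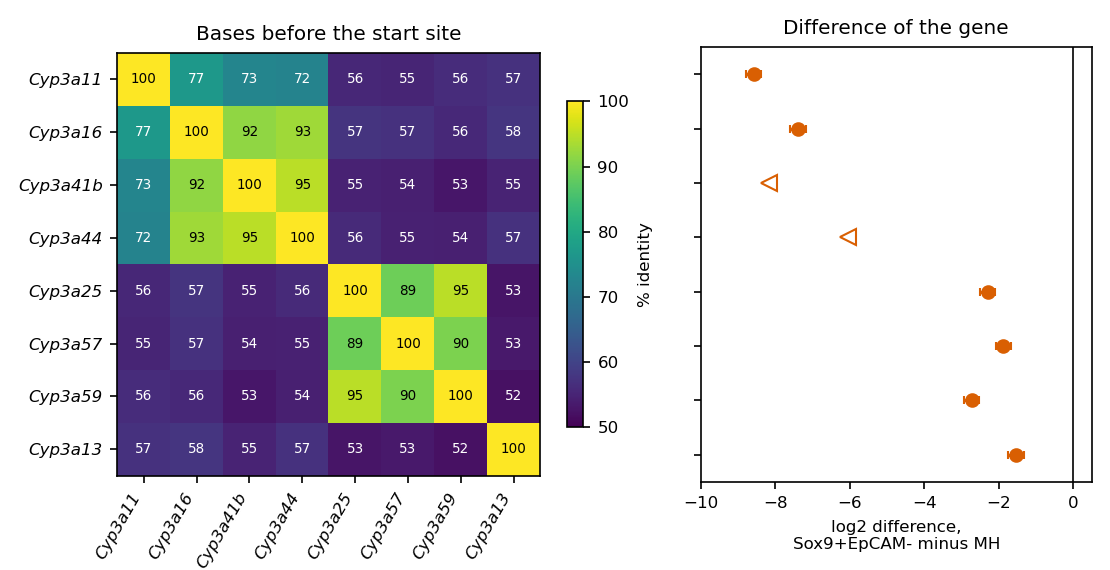
Left, percent identity of the 250 bases before the start site between 8 Cyp3a genes in global alignments. Right, log2 difference of each gene in the same order (circles with spot errors, open triangles are bounds), from -8.58 to -6.05 for the upper 4 genes and from -2.72 to -1.54 for the lower 4.

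The Cyp4a genes, whose probes lie between 115005258 and 115294911 of chromosome 4 (mm9), differed by less than 4-fold where both arrays could measure them, which was so for 4 of the 6. The other 2 have only lower bounds. Their median log2 difference over the 6 was 0.07, against -0.12 for all genes. Cyp4a14, a fatty acid hydroxylase known as a sensitive target of PPARα, had an intensity of 16000 in MHs and 42600 in Sox9+EpCAM- cells, 1.78-fold higher with a log2 difference of 0.83 ± 0.20 (spot error). It was higher under every alternative processing tried, with log2 differences from 0.65 to 1.27. Cyp4a10 had 25500 and 36000 at its brightest probe, and its 3 probes gave log2 differences of -0.09, -0.14 and -0.25. Cyp4a31 had 13900 and 19300 at its brightest probe, and its 3 probes gave -0.15, -0.11 and 0.15. For both genes the difference was close to the error of the spots, and its sign turned with quantile normalization, to 0.38 for Cyp4a10 and 0.30 for Cyp4a31. Cyp4a32 had 7820 and 5490, a log2 difference of -1.09 ± 0.20, and was the lowest of the 6.

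Cyp4a10 and Cyp4a31 are close copies, and their brightest probes are identical at 54 of 60 bases. A stretch of 30 bases of each is shown, with the differing base in capitals.
Cyp4a31: tgGcagagaactcagtacatctgtcacctt
Cyp4a10: tgTcagagaactcagtacatctgtcacctt
The design assigns this probe of Cyp4a10 also to Cyp4a32, and another probe of Cyp4a31 also to Cyp4a10. The values of these 3 genes may therefore contain signal of one another. The probe of Cyp4a10 that shared no 20 bases with another gene's probe gave -0.25.

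Cyp4a12a and Cyp4a12b, male-predominant forms that make the vasoactive lipid 20-HETE, differed in direction from the female-predominant Cyp3a genes, but at low intensities. The intensity of Cyp4a12a was 10.3 in MHs, not well above background, and 49.0 in Sox9+EpCAM- cells, at least 1.18-fold higher. With normexp correction and with quantile normalization this gene had no difference to give. The intensity of Cyp4a12b was 11.4, not well above background, and 96.9, at least 2.33-fold higher, and its log2 difference was 2.50 without the bound and 0.41 after normexp correction. Both were low on both arrays, and the design assigns the probe of Cyp4a12a to both genes. On the MH array, 3 of 3 measured female-biased members were well above background and 0 of 2 male-biased members were. Of these, Cyp3a41b and Cyp3a44 counted as measured through this array alone, and both male-biased members through the Sox9+EpCAM- array alone. Y-linked Ddx3y had an intensity of 8.43, not well above background, in MHs and 642 in Sox9+EpCAM- cells. Whether the sex of the mice had a part in these differences was not tested, and with 1 array each, sex, diet and cell type cannot be told apart.

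**Figure D4:**
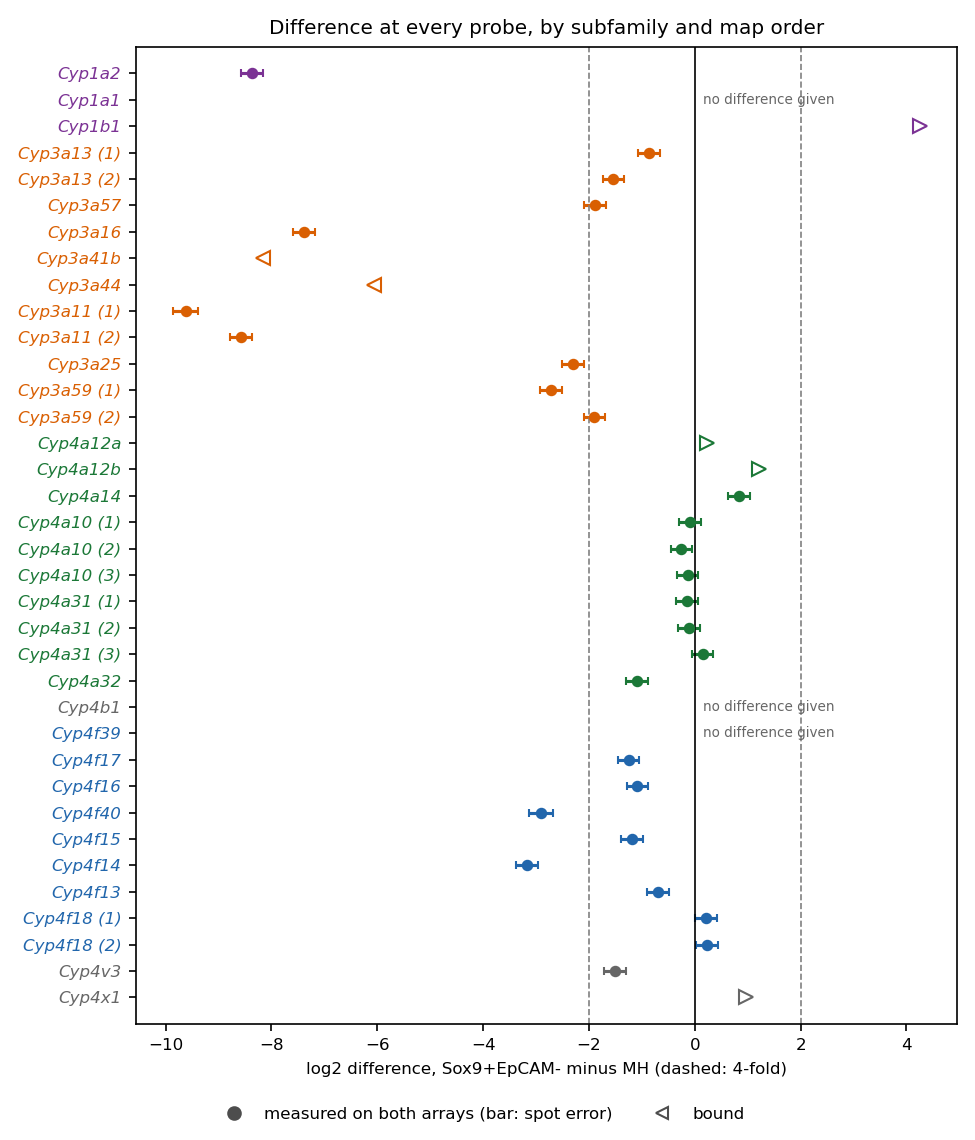
Log2 difference between Sox9+EpCAM- cells and MHs at each of the 36 probes, by subfamily and in map order within each chromosome, with spot errors as bars and bounds as open triangles pointing away from 0. The Cyp3a run from Cyp3a16 to Cyp3a11 lies at -6.05 or below, and the 6 probes of Cyp4a10 and Cyp4a31 lie between -0.25 and 0.15.

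The Cyp4f genes were moderately lower, with a median log2 difference of -1.19 over 7 genes. All but Cyp4f18 are read between 32629616 and 33062650 of chromosome 17 (mm9). Cyp4f14, a leukotriene hydroxylase of the liver, had the lowest log2 difference except under quantile normalization, where that of Cyp4f40 was -3.04 and its own -2.88, with intensities of 14100 in MHs and 2340 in Sox9+EpCAM- cells, 9.03-fold lower and a log2 difference of -3.17 ± 0.20 (spot error). Cyp4f40 had 441 and 88.2, 7.49-fold lower, and this weakened to a log2 difference of -2.13 after normexp correction. The other Cyp4f genes of chromosome 17 stayed within 2.38-fold. Cyp4f13 had 5610 and 5210, a log2 difference of -0.69. Cyp4f15 had 9520 and 6260, a log2 difference of -1.19. Cyp4f16 had 779 and 550, with a difference of -1.09, and Cyp4f17 had 7870 and 4950, with a difference of -1.25. These 4 genes thus had differences of one direction, and on the map Cyp4f40 and Cyp4f14 lie among them. Cyp4f39, which is known from skin, was at 13.5 in MHs, not well above background, and at 26.7 in Sox9+EpCAM- cells, too low for a fold.

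Cyp4f18 lies apart on chromosome 8 and is known as a leukotriene-inactivating enzyme of leukocytes. It was the only Cyp4f gene measured on both arrays with a higher value in Sox9+EpCAM- cells, with intensities of 2270 and 3950 at one probe and 1950 and 3420 at the other, log2 differences of 0.22 and 0.23 that are close to the spot error of 0.20. The probes are shifted by 1 base and identical at 56 of 59 bases, so they are not independent. Leukocyte markers were not uniform. Of 7 measured leukocyte markers, 3 were at least 4-fold lower and 0 higher, and the scaled intensity summed over all 9 markers of the list was 24.0 in MHs and 2.39 in Sox9+EpCAM- cells. Clec4f, of Kupffer cells, was 86.1-fold lower and Cd74 8.38-fold lower, and these 2 genes made up most of the sum in MHs. Lyz2 was 6.23-fold and Tyrobp 3.48-fold lower. Ptprc, found on all leukocytes, and Cd3e, of T cells, had log2 differences of -0.24 and -0.22. S100a8 and S100a9, of neutrophils, were not well above background on either array, and Cd79a, of B cells, was too dim for a fold.

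The remaining members were Cyp4v3 and Cyp4x1. Cyp4v3, a fatty acid hydroxylase whose human counterpart is mutated in a retinal dystrophy, had intensities of 18900 and 9980, 2.84-fold lower. Cyp4x1, known mainly from the brain, had 26.5, not well above background, in MHs and 81.1 in Sox9+EpCAM- cells, at least 1.95-fold higher, but after normexp correction the log2 difference was 0.06.

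Genes listed as electron donors of cytochromes P450 had lower values in Sox9+EpCAM- cells, where they had a probe. Por, which encodes P450 oxidoreductase, was 2.99-fold lower, with intensities of 6060 in MHs and 3040 in Sox9+EpCAM- cells. Cyb5b was 2.42-fold lower and Cyb5r3 1.37-fold lower, and 0 of 3 reached 4-fold. The log2 difference of Cyb5r3 weakened to -0.03 in another way of processing, and Cyb5a had no probe by this name. Among 7 measured genes of receptors and partners, 1 was at least 4-fold lower. This was Nr1i3, which encodes CAR, with 23200 and 3480, 9.99-fold lower. Nr1i2, which encodes PXR, had a log2 difference of -0.65, Ppara -0.89 and Arnt -0.55. Ahr, Rxra and Hnf4a had 0.14, -0.18 and -0.23, and the sign of these 3 differed between ways of scaling. Ahrr, the AHR repressor, was not well above background on either array.

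Other genes known to respond to the same receptors were read from lists that were chosen with earlier results of these data known. Whether the receptors had a part in the differences was not tested. Of 6 measured PXR and CAR targets, 4 were at least 4-fold lower, against 5.58% of all genes, with a median log2 difference of -2.47. Cyp2b10, the classical CAR target, was 179-fold lower, Ces2a, a carboxylesterase, 18.2-fold lower and Cyp2c55 7.69-fold lower. Alas1, the first enzyme of haem synthesis, had 8580 in MHs and 3210 in Sox9+EpCAM- cells, just at the 4-fold rule. Its log2 difference weakened to -1.71 in another way of processing. The efflux pumps differed from them, with Abcb1a 2.06-fold lower and Abcc3 2.23-fold higher. Of 8 PPARα targets, 0 were at least 4-fold lower and 2 were higher by this size, against 5.59% of all genes, with a median of -0.04. The 2 were Pdk4, a kinase that inhibits pyruvate dehydrogenase, 30.1-fold higher, and Acot1, an acyl-CoA thioesterase, with a log2 difference of 2.81. The other 6, Ehhadh, Acaa1b, Cpt1a, Fabp1, Vnn1 and Creb3l3, lay between -0.74 and 0.16, and the sign of 5 of them, all but Fabp1, differed between ways of scaling. Of 5 other AHR targets, 0 differed by 4-fold. Tiparp was 2.88-fold higher, Nqo1, Aldh3a1 and Ugt1a6b had log2 differences of -0.65, -0.58 and -0.52, and Ugt1a6a was at least 1.15-fold higher.

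**Figure D5:**
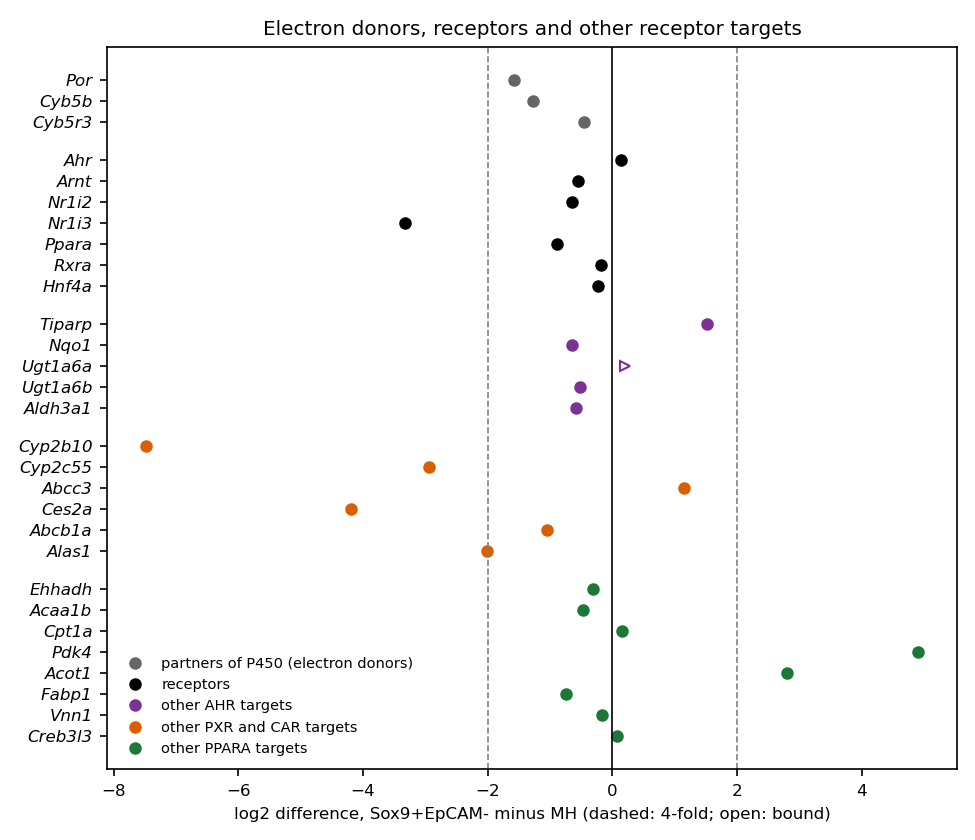
Log2 difference between Sox9+EpCAM- cells and MHs of electron donors, receptors and other targets of AHR, of PXR and CAR and of PPARα (1 point per gene, open triangle a bound, dashed lines at 4-fold). Cyp2b10 and Ces2a lie at the low end with -7.48 and -4.19, 6 of 8 PPARα targets lie within 2-fold of 0, and Pdk4 is highest with 4.91.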

How the data were processed

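A service provider labelled total RNA with Cy3, by a protocol not disclosed per the labels, and hybridised it to 1 Agilent array per group. The authors deposited spot intensity values as written by Feature Extraction 10.7.3.1, with background subtracted but not normalized between arrays, and flags of each spot (other values). They also deposited a table of ratio values, which proved to be the processed intensity divided by the array median (SD of the log2 factor 0.0018, column medians 1.00). Each array was divided by its 75th percentile over spots that are not controls and taken to log2. Outlier spots were left out and spots of a probe averaged, which left 39390 probes. A gene was its probe with the highest mean over both arrays. A probe not well above background on 1 array entered with its own signal there, or with the lowest one well above background if that was higher (27.8 for MHs, 18.4 for Sox9+EpCAM- cells). All measured members were named, and so were genes with a probe in lists of up to 10 genes. A further 3 list genes are not reported here. Members and lists were chosen with earlier results of these data known. Names are those of the design, and all 28 are current RefSeq symbols. Probe positions are on mm9 and promoters, read with Biopython 1.88, on GRCm38.p6. Alternatives were normexp (limma 3.58.1, R 4.3.3, offset 50), 3 other scalings, other choices of probe, outliers kept, the deposited table, no bound, and thresholds of 2-fold and 10-fold. Scripts were run in Python 3.11.15 and tested on simulated data. Of the sample columns, none was left unused.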

Additional observations from a re-analysis of the deposited data

How the results depend on the processing

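Of 25 members with a difference, 23 kept their sign under every alternative that gave them a value, and the exceptions were Cyp4a10 and Cyp4a31. Members with only a bound could not turn sign where bounds were used, since a bound against the array above background was dropped. Cyp4a12a had no value with normexp or quantile normalization for this reason. The count of members at least 4-fold lower was 9 and ranged from 7 to 10 over the alternatives at this threshold. It was 16 at a threshold of 2-fold and 5 at 10-fold. The count of members at least 4-fold higher was 1, became 2 without bounds for dim probes and 2 at 2-fold, and was 0 among genes above background on both arrays. The median of the Cyp3a genes moved from -4.39 to -3.43 with normexp and to -5.05 without bounds. It was -2.51 without probes that share 20 bases with another gene's probe and -2.51 among genes above background on both arrays. The last pair leave out Cyp3a41b and Cyp3a44. The medians of the Cyp4a and Cyp4f genes moved by less than 1.5-fold, but that of Cyp4a, 0.07, turned to -0.05 with normexp and with Gapdh, and to -0.10 with the deposited table and among genes above background on both arrays. Normexp moved 7 of 24 members by over 1.5-fold, and leaving out the bounds moved 5 of 25. Scaling to Gapdh shifted the median of all genes by -0.13 and the deposited table by -0.18. Over all genes, 1309 were higher and 1306 lower by 4-fold or more, and these counts were 1950 and 1416 without bounds and 612 and 660 with normexp. No paired analysis was possible because there was a single array per group, and for the same reason neither leaving out a replicate nor a block for the slide could be run. The lowest signal well above background limits the bounds of dim probes.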
